A study of Mus musculus with 9 samples.

Results

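The genes described here are the 2 receptors (Pdgfra, Pdgfrb) and 4 ligands (Pdgfa, Pdgfb, Pdgfc, Pdgfd) of the platelet-derived growth factor (PDGF) family in mouse prostate cancer lines. All 6 genes had 1 probe set each, out of 22180 genes and 41345 probe sets measured. They were chosen by gene family, at a time when the higher value of Pdgfra in recurrent lines than in the parental line was already known. Each member's difference from the parental line is therefore given as a description, with no p. Calls counted over all genes for that comparison are given only as background.

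MYCCaP is a cell line from a prostate tumour of a mouse that carries a MYC transgene under an androgen-responsive promoter active in prostate epithelium. Expression in 7 samples was read on 9 arrays of the type Affymetrix Mouse Gene 2.0 ST. The parental line, grown with the androgen dihydrotestosterone (DHT), was measured on 3 technical arrays, which count here as 1 sample. The other samples are lines made from tumours that recurred in castrated mice and were grown without DHT, 3 from mice given vehicle and 3 from mice given AZD1208, an inhibitor of the PIM protein kinases. The sources used here do not say whether each line came from its own mouse. The parental line differs from the recurrent lines in medium, passage through a castrated host and number of lines, and these cannot be told apart.

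PDGF ligands are secreted dimers. PDGF-A and PDGF-B are processed inside the cell, while PDGF-C and PDGF-D leave it with an inhibitory CUB domain that extracellular proteases remove. PDGF receptor alpha binds the A, B and C chains and PDGF receptor beta binds mainly the B and D chains. Both are receptor tyrosine kinases that act through PI3 kinase, phospholipase C gamma, SRC kinases and RAS. In the prostate the receptors are known mainly from fibroblasts, smooth muscle and pericytes, and the ligands from epithelium and tumour cells.

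Values are log2 intensities, so a difference of 1 is 2-fold on this scale. Technical parental arrays had a median SD per gene of 0.09. Among vehicle lines it was 0.19, and among AZD1208 lines 0.25. AZD1208 3 stood apart: over the named genes its interquartile range was 2.89, against 3.11 to 3.43 on the other arrays. Limma also gave it the lowest quality weight, 0.342. The next lowest weights were those of AZD1208 2 (0.579) and vehicle 1 (0.628), and the other samples had 1.24 to 2.87. Of the markers of the parental cell type, the prostate transcription factor genes Foxa1 (11.84 parental, 11.71 to 12.13 in the lines) and Hoxb13 (8.86, and 8.44 to 8.91) and the claudin gene Cldn3 (12.43, and 11.65 to 12.43) had clear values in all samples. Cldn3 was nonetheless below the parental mean in all 6 lines on the deposited scale (-0.41, SE 0.31). The keratin gene Krt8 (9.19, and 8.24 to 10.44) and the claudin gene Cldn4 (7.19, and 6.61 to 8.83) had lines on both sides of the parental mean. Several other markers of that type were dim or lower. The prostate gene Pbsn (4.05 in the parental sample), Epcam, an epithelial adhesion molecule, and Esrp1, a splicing regulator, were among the 30% of genes with the lowest mean, and Tmprss2 was at 6.12 in the parental sample. The keratin genes Krt19 (-1.52, SE 0.23) and Krt14 (-0.72, SE 0.23) were below the parental mean in all 6 lines. The number of arrays limits the precision.

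The sequences before 3 of the genes are shown because Pdgfra and Pdgfc had a similar order over the lines and Pdgfa hardly varied. The correlation of Pdgfra and Pdgfc, given below, did not pass after adjustment. Each is the 250 bases before a RefSeq transcription start in GRCm38.p6. Capitals mark the GC box (GGGCGG or its complement CCGCCC). Pdgfra (chr5:75152001-75152250, plus strand), Pdgfc (chr3:81036166-81036415, plus strand) and Pdgfa (chr5:138994945-138995194, minus strand) read 5′ to 3′ as follows.
Pdgfra: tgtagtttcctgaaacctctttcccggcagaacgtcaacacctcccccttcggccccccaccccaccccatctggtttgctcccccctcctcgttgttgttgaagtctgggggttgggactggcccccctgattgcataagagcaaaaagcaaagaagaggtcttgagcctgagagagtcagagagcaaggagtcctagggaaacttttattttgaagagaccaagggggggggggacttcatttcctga
Pdgfc: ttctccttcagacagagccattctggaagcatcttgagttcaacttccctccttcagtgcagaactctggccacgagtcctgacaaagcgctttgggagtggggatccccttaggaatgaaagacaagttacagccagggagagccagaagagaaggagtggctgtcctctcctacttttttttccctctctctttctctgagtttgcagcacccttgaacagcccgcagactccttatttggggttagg
Pdgfa: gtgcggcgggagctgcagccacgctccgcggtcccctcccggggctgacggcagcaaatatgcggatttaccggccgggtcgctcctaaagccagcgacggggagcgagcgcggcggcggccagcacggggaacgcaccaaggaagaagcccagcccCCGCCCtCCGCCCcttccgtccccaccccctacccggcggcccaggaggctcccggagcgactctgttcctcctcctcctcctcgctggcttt

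GC content was 54.4% for Pdgfra, 50.8% for Pdgfc and 72.4% for Pdgfa, against a median of 52.4% over 32851 such windows. The dinucleotide CG occurred 4 times in the Pdgfra window, 3 times in that of Pdgfc and 28 times in that of Pdgfa. The Pdgfa window printed held 2 GC boxes, a motif present in 32.7% of all windows. Both strands were also searched for TATAAA (12.4% of windows), CCAAT (33.8%), the E-box CACGTG (6.02%) and the AP-1 site TGANTCA (6.75%). None of the 5 motifs occurred in the windows of Pdgfra or Pdgfc. A second Pdgfa window (66.4% GC, 19 CG, 1 GC box) and that of Pdgfd (53.6% GC, 3 CG, 1 TATA box) are not printed. The Pdgfd window was close to those of Pdgfra and Pdgfc in GC content. Pdgfd spanned 1.48-fold over the 6 lines, but it is a dim gene, for which differences can be understated. A link between these sequences and the levels in the lines was not tested. A match, or its absence, describes these letters only, and other transcripts of these genes may start elsewhere.

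Among the receptors, Pdgfra was higher in every recurrent line than in the parental line. It was at 7.44, 7.27 and 7.69 on the parental arrays. The vehicle lines were at 10.03, 9.06 and 8.47, and the AZD1208 lines at 9.27, 9.84 and 8.24, in the order of their numbers. All 6 lines lay above the highest parental array. Vehicle 1 (5.91-fold above the parental mean) and AZD1208 2 (5.18-fold) were highest, and AZD1208 3 (1.71-fold) and vehicle 3 (2-fold) were lowest. On average Pdgfra stood 3.21-fold above the parental line (log2 difference 1.68, SE 0.66). Of all 15526 genes tested, 11.8% had all 6 lines above the parental mean. The difference was 1.9 without AZD1208 3.

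Pdgfrb was near the parental level in 5 lines and high in 1. It was at 6.69, 6.89 and 6.97 on the parental arrays, at 6.98, 6.74 and 7.22 in the vehicle lines, and at 6.49, 9.78 and 6.97 in the AZD1208 lines. AZD1208 2 stood 7.63-fold above the parental mean, and the other 5 lines within 1.29-fold of it. The mean difference from the parental line was 0.52 (SE 1.02) with AZD1208 2 and 0.007 without it. In AZD1208 2, Pdgfra and Pdgfrb were thus both high, while vehicle 1, with the highest Pdgfra, had Pdgfrb at 6.98.

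**Figure D1:**
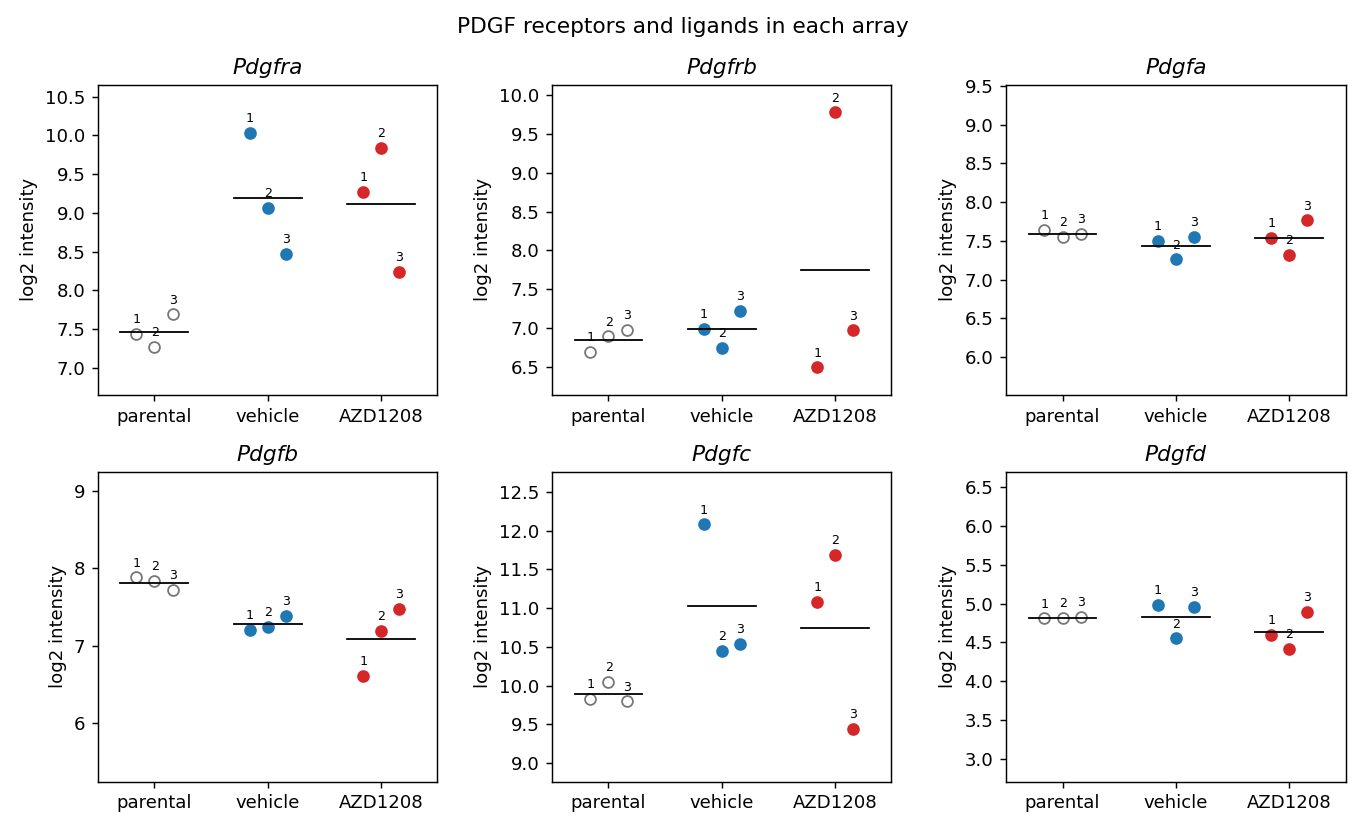
Log2 intensity of the 6 PDGF genes (y axis, spanning 4 log2 units in each panel) on the parental arrays (open grey, technical), vehicle lines (blue) and AZD1208 lines (red), with replicate numbers beside the points and bars at the group means. All 6 lines lie above the parental arrays for Pdgfra and below them for Pdgfb, and AZD1208 2 stands alone for Pdgfrb at 9.78.

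Of the ligands, Pdgfc was the one that stood above the parental line in most recurrent lines. PDGF-C is a ligand of PDGF receptor alpha. Its gene was at 9.83, 10.05 and 9.80 on the parental arrays, at 12.08, 10.44 and 10.54 in the vehicle lines and at 11.08, 11.69 and 9.44 in the AZD1208 lines. Vehicle 1 (4.55-fold) and AZD1208 2 (3.47-fold) were again highest, and AZD1208 3 alone lay below the parental arrays, 1.37-fold under their mean. The mean difference was 0.99 (SE 0.85) with all lines and 1.31 without AZD1208 3.

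Pdgfb, which encodes the B chain that binds both receptors, was lower than the parental line in all 6 lines. The parental arrays were at 7.88, 7.84 and 7.72, the vehicle lines at 7.21, 7.25 and 7.39, and the AZD1208 lines at 6.61, 7.19 and 7.47. Every line lay below the lowest parental array, from 1.26-fold under the parental mean in AZD1208 3 to 2.3-fold in AZD1208 1. The mean difference was -0.63 (SE 0.31), or 1.54-fold lower, with -0.51 without AZD1208 1 and -0.72 without AZD1208 3. All 6 lines lay below the parental mean for 10.8% of the genes tested.

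Pdgfa, which encodes the A chain, and Pdgfd, which encodes the D chain, lay close to the parental arrays in all lines. Pdgfa was at 7.64, 7.55 and 7.59 on the parental arrays, 7.50, 7.26 and 7.55 in vehicle lines and 7.54, 7.32 and 7.76 in AZD1208 lines. Its mean difference from the parental line was -0.10 (SE 0.23), with 1 of 6 lines above the parental mean. Pdgfd was between 4.81 and 4.83 on the parental arrays, at 4.99, 4.55 and 4.95 in vehicle lines and 4.59, 4.42 and 4.89 in AZD1208 lines. It belongs to the 30% of genes with the lowest mean (under 5.81), which were left out of the tests, so 5 of the 6 members were tested. The values carry no detection call, and for a gene this dim a difference can be understated.

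The recurrent groups were compared to ask whether PIM inhibition in the mouse left the derived lines with other levels of these genes. None of the 5 tested members differed beyond the spread between lines. AZD1208 minus vehicle was -0.07 (SE 0.50) for Pdgfra, 0.76 (SE 0.77) for Pdgfrb, 0.11 (SE 0.17) for Pdgfa, -0.19 (SE 0.23) for Pdgfb and -0.28 (SE 0.64) for Pdgfc, with adjusted p = 1 for each (limma, Benjamini-Hochberg over all genes tested). For all 6 members the 3 AZD1208 lines and the 3 vehicle lines overlapped. All 3 AZD1208 lines lay above all 3 vehicle lines for 1.41% of the genes tested, and below them for 1.97%. Limma called 0 of 15526 genes (0%) for this comparison, and 81 had an unadjusted p under 0.05.

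The value for Pdgfrb rested on AZD1208 2, without which it was -0.25 (SE 0.23). Without vehicle 1 the difference was 0.35 for Pdgfra and 0.25 for Pdgfc, and without AZD1208 3 it was 0.37 for both. Without AZD1208 1 the difference for Pdgfb was 0.05. Set against the same parental sample, the vehicle and AZD1208 means stood at 1.72 and 1.65 for Pdgfra, 0.13 and 0.90 for Pdgfrb, 1.13 and 0.84 for Pdgfc, and -0.53 and -0.72 for Pdgfb. These pairs of values share the parental arrays and are not independent.

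The spread between recurrent lines was wide for 3 members. Over the 6 lines Pdgfrb spanned 9.77-fold, Pdgfc 6.24-fold and Pdgfra 3.46-fold, against 1.82-fold for Pdgfb and 1.42-fold for Pdgfa. The SD over the 6 lines was larger than that of 99.5% of the genes tested for Pdgfrb, 98.8% for Pdgfc and 96.9% for Pdgfra. For Pdgfa it was larger than that of 29.3%. In both groups of lines high and low values of Pdgfra and Pdgfc occurred side by side.

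Pdgfra and its ligand gene Pdgfc followed nearly the same order across lines. Pearson's r over the 6 recurrent lines was 0.945 (two-sided exact permutation p = 0.00417, exact adjusted p = 0.0625 over the 15 pairs of members). Spearman's rho was 0.943 (exact permutation p = 0.0167, adjusted p = 0.25). Neither passed after adjustment. Without the 2 lines farthest from the median of Pdgfra, AZD1208 3 and vehicle 1, r was 0.871. Within the AZD1208 lines the order was AZD1208 2, AZD1208 1, AZD1208 3 for both genes. Within the vehicle lines vehicle 1 was highest for both, and vehicle 2 and vehicle 3 exchanged places. For the other 14 pairs the exact adjusted p was between 0.646 and 0.74, with Pdgfra against Pdgfrb at r = 0.403.

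**Figure D2:**
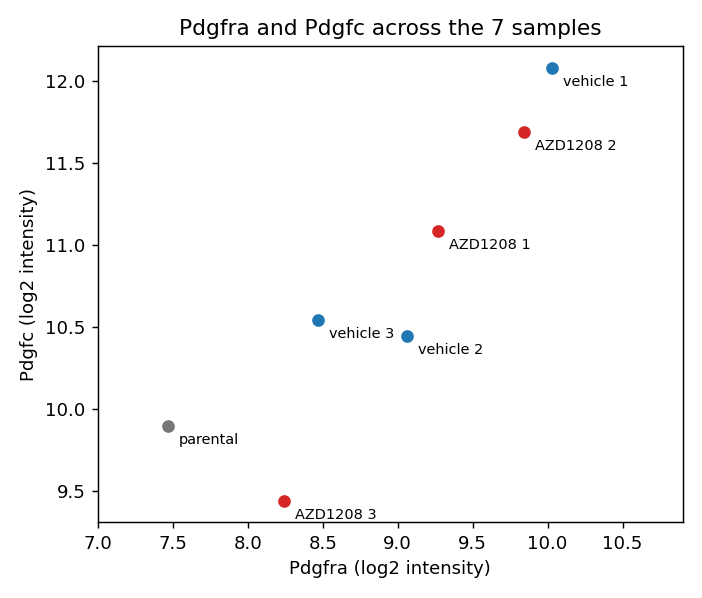
Log2 intensity of Pdgfra (x axis) against Pdgfc (y axis) in the parental sample (grey, mean of 3 arrays), the vehicle lines (blue) and the AZD1208 lines (red). Vehicle 1 and AZD1208 2 lie at the top right, and AZD1208 3, at 8.24 and 9.44, has the lowest Pdgfc.

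Many genes shared the profile of Pdgfra over the 7 samples. Among 1405 genes with an SD of at least 0.5, Pdgfc ranked 158 by its Pearson correlation with Pdgfra (r = 0.898), and Pdgfrb ranked 933 (r = 0.405). The 10 nearest named genes were Abca2 (r = 0.992), Klhl24 (0.99), Mme (0.988), B3gnt9 (0.985), Ifi27 (0.984), Rhoq (0.983), Crebrf (0.982), Slc31a2 (0.981), Atp7a (0.98) and Nfat5 (0.98). Mme encodes the membrane peptidase neprilysin and was at 8.49 in the parental sample, 11.83 in vehicle 1 and 9.50 in AZD1208 3. Atp7a and Slc31a2 encode copper transport proteins, and Abca2 a lipid transporter. These correlations are a description over 7 points that share one parental sample and the same arrays. Over the 6 recurrent lines alone, 2 of the 10 genes stayed among the 10 nearest, Atp7a (r = 0.992) and Nfat5 (0.99). All 10 kept an r of at least 0.968 there and ranked between 1 and 39. Pdgfc ranked 92 over these lines.

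Among genes that process or bind PDGF ligands, Lrp1 and Plat stood well above the parental line. Of 14 genes listed, 13 passed the filter. Limma called 0 of them in either comparison. Of the 13, 3 had all 6 lines above the parental mean and 2 all 6 below, with a median difference of -0.002 against -0.02 over all genes tested. Over all genes tested these shares were 11.8% and 10.8%. Lrp1, an endocytic receptor that forms complexes with PDGF receptor beta, was 8.13-fold higher (3.02, SE 0.71). It was at 7.12 in the parental sample, at 10.69, 9.37 and 9.97 in vehicle lines and at 10.26, 11.32 and 9.26 in AZD1208 lines, so the groups of lines overlapped while all lines lay far above the parental value. Plat, the tissue plasminogen activator that cleaves the CUB domain from PDGF-C, was 3-fold higher (1.59, SE 0.40). It was at 9.25 in the parental sample, 11.55, 10.74 and 10.44 in vehicle lines, and 10.54, 11.09 and 10.67 in AZD1208 lines. Vehicle 1 and AZD1208 2, the lines with most Pdgfra and Pdgfc, were also the highest for Plat.

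Sparc, a matrix protein that binds the B chain, differed by 0.39 (SE 0.26), above the parental mean in 6 of 6 lines, or in 5 with arrays centred on their median. Nrp2 differed by -0.17 (SE 0.20), below the parental mean in all 6 lines. Between the recurrent groups the smallest unadjusted p of this list were those of the membrane protease gene St14 (0.27, SE 0.14, limma unadjusted p = 0.097) and of Thbs1, which encodes thrombospondin 1 (0.35, SE 0.30, limma unadjusted p = 0.278). Neither passed the adjusted threshold.

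Of 24 genes of receptor-proximal signalling, all measured, 23 passed the filter. Of these, 6 had every line above the parental mean and 2 every line below it, against 11.8% and 10.8% of all genes tested. The median difference was 0.14, and limma called 0. Nck2, an SH2 adaptor, was 1.78-fold higher (0.83, SE 0.29), the SRC family kinase gene Fyn 1.59-fold (0.67, SE 0.36) and the docking protein gene Gab1 1.57-fold (0.65, SE 0.31). Stat5b, a transcription factor gene, was 1.56-fold lower (-0.64, SE 0.23). For AZD1208 against vehicle the adaptor gene Shc1 had the smallest unadjusted p (-0.38, SE 0.13, limma unadjusted p = 0.024), with all 3 AZD1208 lines below all 3 vehicle lines. Vav2, an exchange factor gene, showed the same order (-0.28, SE 0.15, limma unadjusted p = 0.103). Neither passed (adjusted p = 1).

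Of 18 genes listed for receptor attenuation, 15 passed the filter, 0 had all 6 lines above the parental mean and 2 all 6 below, with a median of -0.09. The 2 of 15 are near the 10.8% of all genes with all 6 lines below. These 2 were the suppressors of cytokine signalling Socs3 (-0.51, SE 0.34) and Socs1 (-0.22, SE 0.23). Cbl, a ubiquitin ligase of activated receptors, differed between AZD1208 and vehicle lines by -0.36 (SE 0.24) and Errfi1, an inhibitor of the EGF receptor, by -0.23 (SE 0.18), neither past the threshold. Limma called 0 of the 15 in either comparison.

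Of 20 immediate early genes, which growth factors induce within minutes to hours, 18 were measured. All 6 lines lay above the parental mean for 4 (11.8% over all genes) and below it for 0 (10.8% over all genes, and 2 of the list with quantile normalization), with a median of 0.17, and limma called 0. The 4 were Klf6 (0.72, SE 0.23), Egr1 (0.71, SE 0.30), Jun (0.55, SE 0.31) and Ccn2 (0.32, SE 0.28, in 5 of 6 lines with arrays centred on their median). Fos was at 7.15 in the parental sample, and above 8 in vehicle 1, AZD1208 1 and AZD1208 2 only. These are the lines with the 3 highest values of Pdgfra and Pdgfc, a pattern noticed after the values were seen. Between recurrent groups Junb (-0.39, SE 0.25) and Egr2 (0.23, SE 0.16) had the smallest unadjusted p, and neither passed.

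The related class III and VEGF receptors and ligands gave 12 genes past the filter of 15 listed, with 4 above the parental mean in all 6 lines (11.8% over all genes), 0 below (10.8% over all genes), and a median of 0.01. With quantile normalization 2 genes had all 6 lines above and 1 all 6 below. With arrays centred on their median these counts were 5 and 1. Vegfd, a ligand with the same cystine-knot fold as the PDGFs, was at 5.55 in the parental sample, 9.26 in vehicle 1 and 8.91 in AZD1208 2. Its other lines were between 5.68 and 7.21, so vehicle 1 and AZD1208 2 were again highest. That these lines were highest for several of the genes described was noticed after the values were seen. The share of all genes with this order was not counted. Kitl, the ligand of the KIT receptor, was 2.51-fold higher (1.33, SE 0.65). Il34 differed by 0.55 (SE 0.55) and Vegfa by 0.24 (SE 0.28), both above the parental mean in 4 of 6 lines with quantile normalization. Il34 was also highest in vehicle 1 and AZD1208 2, while Kitl was highest in AZD1208 1 (10.60). For Vegfa AZD1208 2 was highest and vehicle 2 (8.78) second. The receptor genes Kit and Csf1r differed by 0.16 each between AZD1208 and vehicle lines (SE 0.17 and 0.16), and neither passed the adjusted threshold. For recurrent against parental limma called 0 of 15526 genes (0%), and 429 had an unadjusted p under 0.05.

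**Figure D3:**
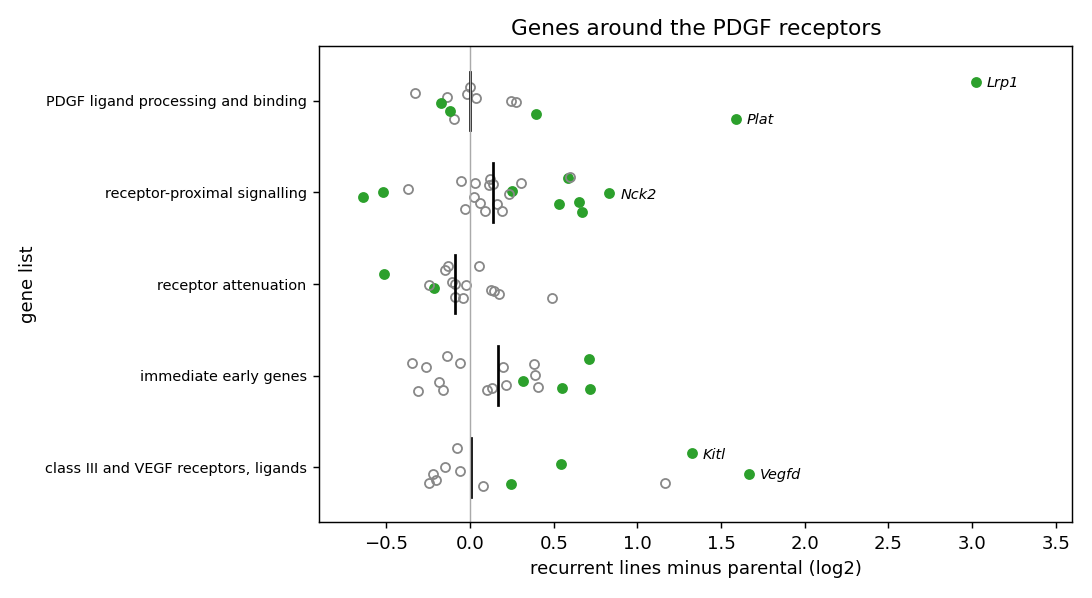
Log2 difference of recurrent lines from the parental sample (x axis) for genes past the filter in the 5 lists around the PDGF receptors (rows). A black bar marks each list's median. Filled green points mark genes whose 6 lines were all higher or all lower than the parental mean, among them Lrp1 at 3.02, Plat at 1.59, Vegfd at 1.67, Kitl at 1.33 and Nck2 at 0.83.

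Because PDGF receptors are typical of mesenchymal cells, markers of other cell types were set beside them. In bulk RNA, fewer cells of a type and less RNA per cell cannot be told apart. Fibroblast markers (15 of 18 past the filter) had a mean level of 6.78 in the parental sample, 6.998 to 7.46 in vehicle lines and 6.98 to 7.46 in AZD1208 lines, with the highest in vehicle 1 and AZD1208 2. All 6 lines were above the parental mean for 2 of the 15, Postn (4.16, SE 1.61) and Fbln2 (1.17, SE 0.44), and below it for 0. The shares over all genes tested were 11.8% and 10.8%. The list median was -0.07, so the higher list means rest on few genes. Dpt, a dermal and stromal matrix gene, was at 6.04 in the parental sample, 11.25 in vehicle 1, 10.49 in AZD1208 2 and between 6.03 and 6.68 in the other lines. The collagen genes that define fibroblasts were not higher in those lines. Col1a1 was at 7.34 in the parental sample, 7.29 in vehicle 1 and 7.33 in AZD1208 2, and Col1a2 at 7.11, 7.05 and 6.84. Dcn, Lum and Fap were among the genes with the lowest means, with Dcn at 5.37 in the parental sample and 6.68 in AZD1208 2.

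Markers of pericytes and smooth muscle (10 of 11 past the filter) had a mean of 7.45 in the parental sample, 7.44 to 7.70 in vehicle lines and 7.53 to 8.32 in AZD1208 lines, with AZD1208 2 the highest. All 6 lines lay above the parental mean for 2 of the 10, Mcam (2.17, SE 0.83) and Des (0.33, SE 0.42), against 11.8% of all genes tested. The list median was 0.04. Acta2, smooth muscle actin, was at 11.87 in AZD1208 2, where Pdgfrb was at 9.78. It was between 7.05 and 7.998 in the other 5 lines, with the parental sample at 7.78. The high list mean of AZD1208 2 rested largely on Acta2 and Mcam (7.65 in the parental sample, 11.46 in AZD1208 2). Anpep, the brightest gene of this list, went the other way. It was at 11.94 in the parental sample and lowest in AZD1208 2, at 10.875. Myh11, a smooth muscle myosin, was at 7.15 in AZD1208 2 and 7.29 in the parental sample, and the pericyte gene Rgs5 was left out as dim, at 4.6 in AZD1208 2. The part of such cells in the levels of Pdgfra, Pdgfrb and Pdgfc was not tested.

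Epithelial markers (10 of 14 past the filter) had a mean of 8.09 in the parental sample, 7.58 to 7.97 in vehicle lines and 7.64 to 7.87 in AZD1208 lines. For 6 of the 10, all lines lay below the parental mean (5 with quantile normalization or with arrays centred on their median), and for 0 all lay above it, with a median of -0.23. Over all genes tested 10.8% had all 6 lines below, or 15.4% with quantile normalization. The list mean was lowest in vehicle 1 and AZD1208 2. Esrp2, an epithelial splicing regulator, was at 10.13 in the parental sample, 9.66 in vehicle 1 and 8.999 in AZD1208 2. Of the 6 genes, Esrp2, Krt19 and Krt14 lay below every parental array in all 6 lines. Cldn3 did so in 5 lines, Cdh1 in 4 and the keratin gene Krt18 in 3. Relative to the parental sample, endothelial markers stood between -0.20 and 0.11 in the lines, and lymphocyte markers between -0.45 and 0.27. Myeloid markers stood between -0.21 and 0.44, highest in AZD1208 2 (0.44) and vehicle 2 (0.40). The mean of 3 platelet markers stood between -0.86 and -0.41 through 1 gene, Ppbp (-1.95, SE 0.44), with Itga2b and Gp9 at 0.03 and 0.04 and a list median of 0.03. Single myeloid genes went both ways. Cd68 was above the parental mean in all 6 lines (0.40, SE 0.36), and Csf1r in 1 of 6 (-0.15, SE 0.21). Ptprc, a marker of all leukocytes, was left out as dim, at 4.85 in the parental sample and 4.49 in AZD1208 2. Lyz2, also left out as dim, was at 5.185 in the parental sample. It was at 7.10 in vehicle 1, 6.97 in vehicle 2 and 6.42 in AZD1208 2, and not above the parental mean in the other lines.

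**Figure D4:**
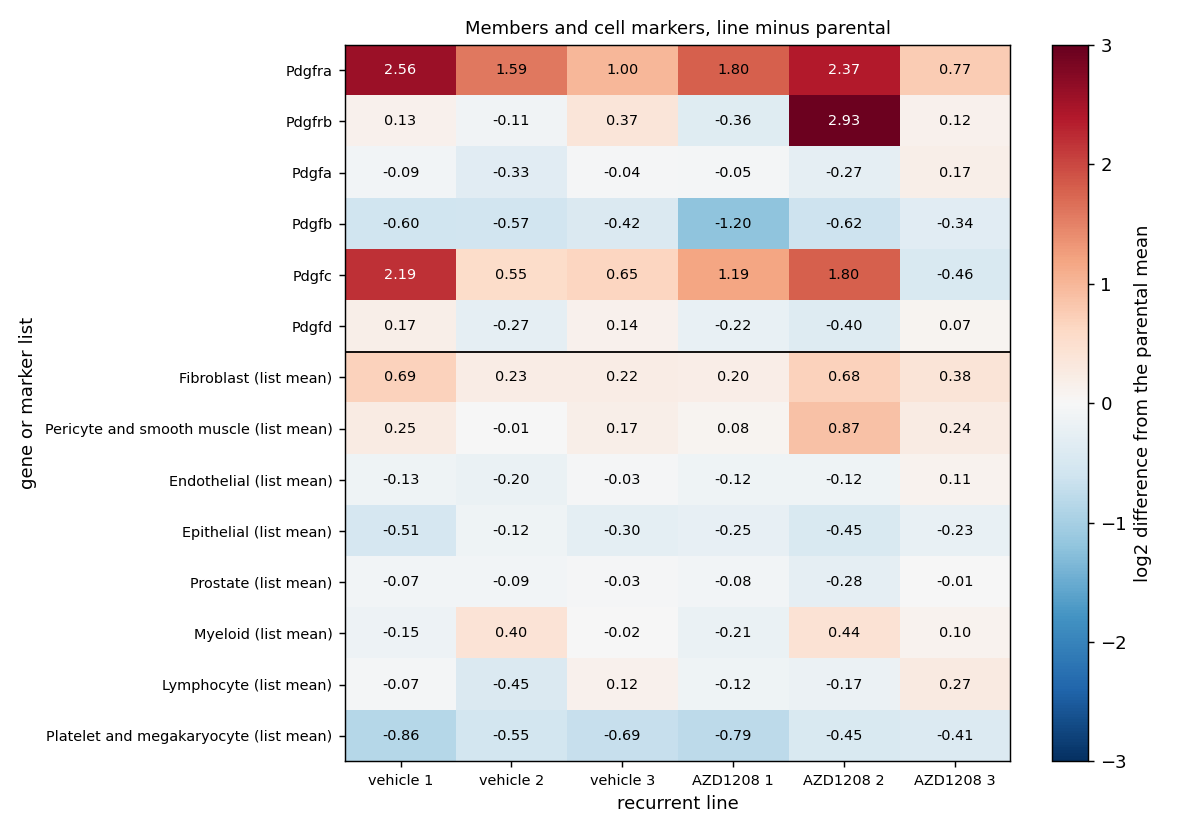
Log2 difference of each recurrent line (columns) from the parental mean, for the 6 PDGF genes (top rows) and the mean of 8 cell marker lists (bottom rows), with red above and blue below the parental sample. Vehicle 1 and AZD1208 2 have the highest Pdgfra (2.56 and 2.37), Pdgfc (2.19 and 1.80) and fibroblast marker means (0.69 and 0.68).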

How the data were processed

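Total RNA of 9 arrays was measured with 1 probe set per PDGF gene. The authors deposited log2 intensities for every probe set. They used oligo, per the submitters' processing notes. The sources used here give neither its version nor the normalization or genome build. The deposited scale was kept. Gene names came from GEO's platform annotation, checked by Entrez identifier against RefSeq GRCm38.p6: 23521 had 1 symbol, 1814 several and 16010 none in that annotation, and no coordinates of probe sets are given. Where several probe sets named 1 gene (1082 genes), the brightest by mean represented it. The 30% of 22180 genes with the lowest mean over the samples were left out (under 5.81), which left 15526.

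The 3 technical parental arrays were averaged. The 7 samples were fitted with lmFit and eBayes of limma 3.58.1 (R 4.3.3), on group alone (residual degrees of freedom: 4), with Benjamini-Hochberg adjustment over the genes tested at 0.05. The lone parental sample is assumed to vary like the other groups. The labels call the lines biological replicates, and p-values reflect no other replication than these lines. For the limma p-values, eBayes moderates each gene's spread with that of all genes tested (prior degrees of freedom: 3.359). The procedure was tested on simulated data.

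The members and gene lists were chosen with earlier results of these data known. Other genes were named by a rule. For each pathway list it takes up to 4 genes with the largest differences whose 6 lines were all higher or all lower than the parental mean, and the 2 with the smallest unadjusted p for AZD1208 against vehicle. For likeness to Pdgfra it takes the 10 highest correlations, passing over predicted and small RNA symbols, and for marker lists the brightest and the defining genes. Other names, among them Fos, Csf1, Krt19, Krt14, Ppbp, Dpt, Fbln2, Des, Igfbp5 and Pdgfrl, were chosen after their values were seen. List genes without a named probe set were not analysed here. Older symbols were updated through RefSeq.

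Replicate numbers 1 to 3 occur in both recurrent groups. Deviations from the group means correlated over genes at 0.146, 0.118 and 0.532 for the lines numbered 1, 2 and 3. No label says what a shared number means, and vehicle 1 with AZD1208 2 gave 0.264. Because all 3 exceed 0.1, a fit blocked on replicate number was also run. Other alternatives were quantile normalization, centring on the median, the filter, the probe set rule, array quality weights, the parental arrays as 3 samples and leaving out each replicate.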

Additional observations from a re-analysis of the deposited data

Results flagged for a closer look

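Within the 6 recurrent lines taken as a group, 60 named genes were checked for a line whose distance to its nearest neighbour is a larger part of the whole range than Dixon's critical value for 6 values, which chance alone exceeds in about 1 of 20 groups. Of these genes 6 had such a line. Genes were named in part by their values in these same lines, so this count cannot be read against that rate. Among the members, Pdgfrb stood at 9.78 in AZD1208 2, a gap of 0.778 of the range, and Pdgfb at 6.61 in AZD1208 1, a gap of 0.671. AZD1208 2 also stood alone for the smooth muscle actin gene Acta2 (11.87), for Vegfa (9.36) and, on the low side, for Esrp2 (8.999). Vehicle 2 stood alone for Foxa1 (12.13).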

How the results depend on the processing

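No member passed the threshold for AZD1208 against vehicle under any alternative run, and its sign turned under at least 1 alternative for each of the 5 tested. For Pdgfra it was 0.012 with quantile normalization and 0.25 with array quality weights, and for Pdgfc 0.27 with those weights. Leaving out single lines gave -0.43 to 0.37 for Pdgfra, -0.76 to 0.37 for Pdgfc, -0.25 to 1.39 for Pdgfrb, -0.38 to 0.051 for Pdgfb and -0.0052 to 0.22 for Pdgfa. Differences from the parental line kept their sign under all alternatives run, with ranges of 1.47 to 1.9 for Pdgfra, 0.72 to 1.31 for Pdgfc and -0.78 to -0.51 for Pdgfb. That of Pdgfrb ranged from 0.007 to 0.83. For recurrent against parental 1 gene (Igfbp5) passed with array quality weights, and 156 with the parental arrays as 3 separate samples, which takes technical spread for that between lines. With the replicate block 0 genes passed for AZD1208 against vehicle, and it changed no other call. Of the 10 genes nearest to Pdgfra, 2 were among the 10 nearest over the recurrent lines alone, and all 10 were within the nearest 39. The number of lines limits what can be detected, and Pdgfd and other dim genes have no detection call.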

Other observations

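Pdgfrl, a gene named for its likeness to the PDGF receptors that lacks their kinase domain, is not a member of the family described above. It was at 6.71 in the parental sample, 8.94, 7.83 and 8.05 in vehicle lines and 7.45, 9.45 and 7.59 in AZD1208 lines. All 6 lines lay above the 3 parental arrays, with a mean difference of 1.51 (SE 0.73) and the highest values in AZD1208 2 and vehicle 1. Between AZD1208 and vehicle lines it differed by -0.11 (SE 0.55; limma, adjusted p = 1). Csf1, the ligand of the related receptor gene Csf1r, was at 8.82 in the parental sample and at 11.35 in AZD1208 2, with 5 of 6 lines above the parental mean.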
